A study of Homo sapiens with 6 samples.

Results

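In H1299, a cultured line of human non-small cell lung cancer, 1242 H3K4me3 intervals called in untreated cells at a −log10 q of 5 or more had no counterpart in the metformin list. They were 4.41% of the 28139 control intervals at or above that limit, which are themselves part of 50585 control intervals of any value. A member shared not even 1 bp with any metformin H3K4me3 interval, whatever the metformin interval's value, though the intervals could adjoin. The members were divided by their gap to the nearest metformin interval: 937 (75.4%, exact 95% interval 73.0 to 77.8) lay within 1 kb of one, and 305 (24.6%) lay further away. The members were chosen by the control H3K4me3 values and by overlap with the metformin H3K4me3 list, so their number, their values and their gaps are given as a description and carry no test.

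The series compared cells treated with 5 mM metformin, an oral biguanide that lowers blood glucose, with cells given no treatment. Chromatin was cross-linked, cut with micrococcal nuclease and precipitated with antibodies against H3K4me3 or H3K27me3, and each condition also had an input library. There were 6 samples, 1 library for each mark and condition plus 2 inputs. The 4 peak lists of the marked chromatin were analysed. The inputs were not used here. With 1 library per mark and condition, the values below have no replicate error, and exact (Clopper-Pearson) intervals cover counting error only. Read depth is unknown because the lists hold no read counts.

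H3K4me3 is laid down by the SET1 and MLL (KMT2) methyltransferase complexes and removed by the KDM5 demethylases. It marks the nucleosomes that flank active transcription start sites, is strongest at CpG island promoters, and spreads over several nucleosomes at highly used ones. Weaker and narrower H3K4me3 occurs at some enhancers and at the outer edges of promoter domains. H3K27me3 is the repressive mark of Polycomb repressive complex 2, and sequence carrying both marks is called bivalent. Metformin inhibits complex I of the respiratory chain and leads to activation of the kinase AMPK.

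Among control intervals of value 5 or more, the control-only intervals were mostly short and of low value. Their median width was 300.5 bp (quartiles 210.25 and 459 bp), against 1199 bp (633 and 2113 bp) for the 26897 control intervals of the same limit that had a metformin partner. Shared intervals were wider at higher values, and within a class of low value the medians lay closer. At values from 5 to 6 they were 295 bp for members and 493 bp for shared intervals. From 6 to 7 they were 299.5 and 552 bp, from 7 to 8 297 and 600 bp, and from 10 to 15 325 and 909 bp. Of the members, 480 were narrower than 250 bp, 509 were from 250 to 500 bp wide, 233 from 500 to 1000 bp, and 20 were 1000 bp or wider. An interval of that shortest class is about the length of a nucleosome with its linker. The smallest width was 162 bp among members, shared control intervals and metformin-only intervals alike, and nothing is read from that length. Among shared intervals 57.6% reached 1000 bp, and 17.7% were under 500 bp. A single sub-peak made up 93.0% of the members (1155 of 1242, 91.4 to 94.4), against 27.2% of the shared intervals (7323 of 26897, 26.7 to 27.8). These shares are not matched for width or value. Metformin-only intervals of value 5 or more had 88.2% (2695 of 3054, 87.0 to 89.4), so the trait is not particular to the members.

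The deposited value, read as the −log10 q of the highest sub-peak, ran from 5.02 to 20.6 over the members with a median of 5.78. Shared control intervals had a median of 16.4 and reached 151. Values under 6 were held by 654 members (52.7%), and 65 members reached 10 or more. The share of control intervals without a partner was 20.8% (654 of 3141) at values from 5 to 6, 7.50% (134 of 1787) from 7 to 8, and 1.45% (61 of 4212) from 10 to 15. From 15 to 20 it was 3 of 3240, and from 20 upwards 1 of 11281. Width went the same way: 28.4% of intervals under 250 bp were members, against 0.129% (20 of 15507) of those of 1000 bp or more.

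**Figure D1:**
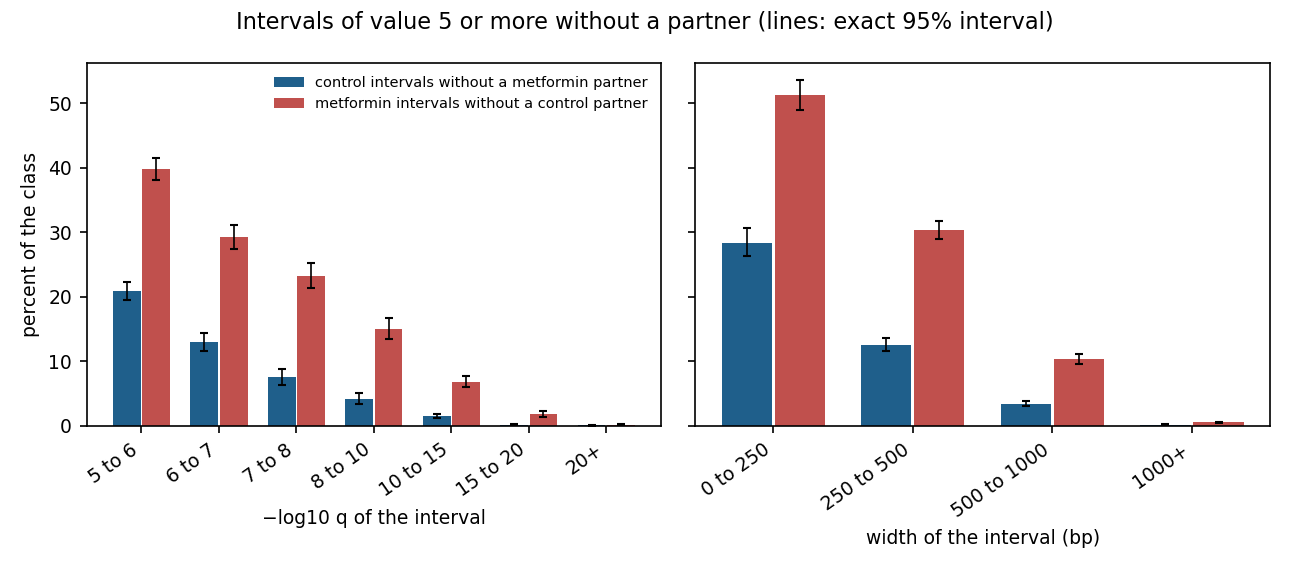
Percent of H3K4me3 intervals of value 5 or more that no interval of the other list overlapped, by −log10 q (left) and by width in bp (right), for control intervals (blue) and metformin intervals (red). Lines are exact 95% intervals for counting error, and in each class the blue bar (20.8% at values from 5 to 6) stands below the red bar (39.8%).

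Many members shared the same value to the last digit. The most frequent was 5.59, held by 261 members of 1133 control intervals at that value, followed by 6.66 with 126 of 860, 5.44 with 101 of 359 and 7.78 with 55 of 712. The 8 most frequent values covered 691 of the 1242 members, and the members held 232 distinct values in all. Next to the limit, the lowest members were chr1:150540517-150541249 and chr12:57937739-57938008, both at 5.02. The intervals just below it, chr3:160397750-160397939 and chr7:92445217-92445451, both had 4.99. Without any limit on the value, 22.7% of control intervals (11468 of 50585) had no metformin partner.

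**Figure D2:**
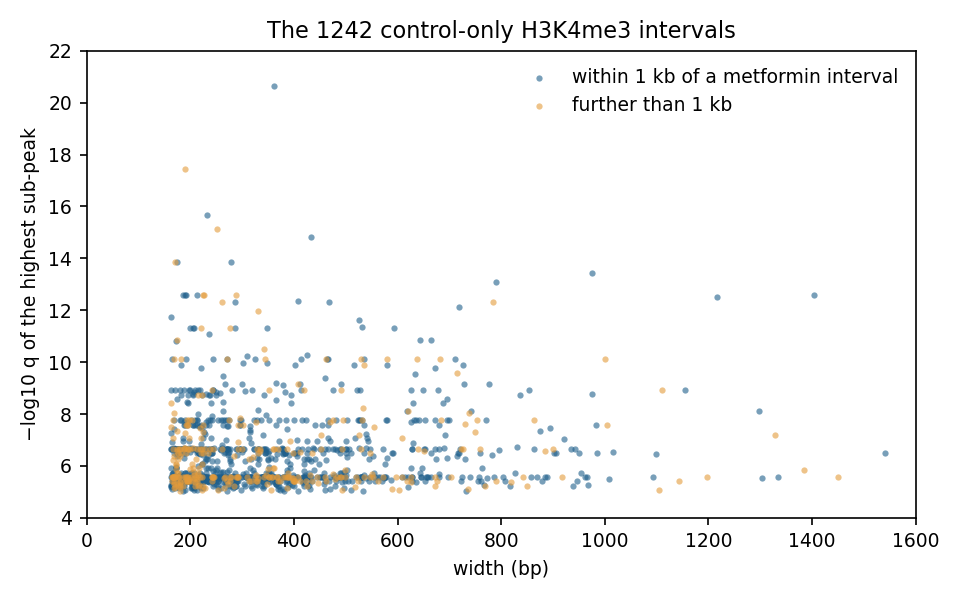
Width in bp (horizontal) against the −log10 q of the highest sub-peak (vertical) for each of the 1242 control-only intervals, those within 1 kb of a metformin interval in blue and those further away in orange. Most points lie under 500 bp and under a value of 8, rows of points at equal height are the repeated values, and the 2 classes lie over each other.

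Near and distant members had close medians of value and width. The 937 near members had a median −log10 q of 5.84 and a median width of 304 bp, and the 305 distant members had 5.69 and 293 bp. Widths under 500 bp were found in 79.8% (77.1 to 82.4) of near and 79.0% (74.0 to 83.4) of distant members. Values of 10 or more were found in 4.48% (42, 3.25 to 6.01) and 7.54% (23, 4.84 to 11.1), with intervals that overlap.

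Most near members lay beside a metformin interval that also overlapped control H3K4me3, though this share was not above the background. Their median gap to the metformin interval was 248 bp (quartiles 143 and 447 bp), a distance of little more than a nucleosome, and 92 of them missed it by less than 50 bp. For 661 of the 937 (70.5%, 67.5 to 73.4) the metformin interval next to them overlapped another control interval at some point of its length. The mark was thus called in both conditions within that interval, though not always at the end next to the member. For 276 near members (29.5%) the nearest metformin interval overlapped no control interval. Of all metformin intervals of value 5 or more, 10.0% (3054 of 30403) overlapped none. The nearest intervals were of any value, and the share over metformin intervals of any value was not counted. The 70.5% is therefore not read as a trait of the members. Another control interval lay within 1 kb of 812 near members (86.7%, 84.3 to 88.8), close to the 86.8% of shared control intervals. In 533 cases the nearest control neighbour overlapped the same metformin interval that was nearest to the member.

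**Figure D3:**
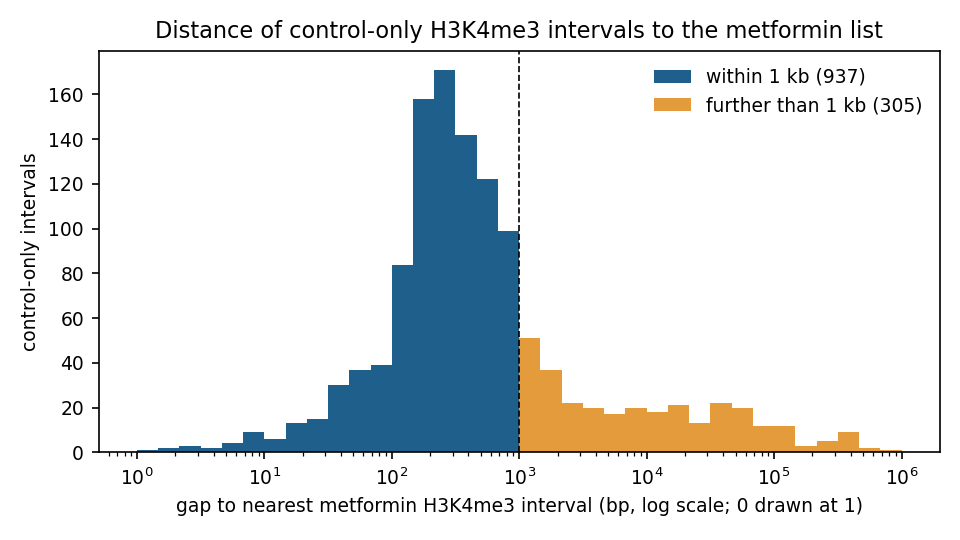
Number of control-only intervals (vertical) by the gap in bp to the nearest metformin H3K4me3 interval (horizontal, log scale, with a gap of 0 drawn at 1), near members in blue and distant ones in orange. The near members crowd between 100 and 1000 bp around their median of 248 bp, and the distant ones trail out to 722 kb.

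The metformin intervals beside near members differed in size. For 376 members (40.1%) the nearest metformin interval was at least 1000 bp wide and also overlapped control H3K4me3, and the member was a separate control interval at its flank. For 416 members (44.4%) it was under 500 bp wide, and 246 of these overlapped no control interval at all. The −log10 q of the nearest metformin interval had a median of 6.93 and ran from 1.34 to 103, and 561 (59.9%) reached 5. On 239 occasions (25.5%, 22.7 to 28.4) metformin intervals stood within 1 kb on both sides of the member, leaving a stretch of 219 to 2199 bp (median 923 bp) without a metformin call.

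Where a near member and its control neighbour sat at the same metformin interval, the metformin edge was compared with the control edge. The metformin interval ended nearer to the member in 332 of the 533 cases, the control neighbour ended nearer in 196, and 5 were equal. The median gap from the member was 260 bp to the metformin interval and 290 bp to the control neighbour. These gaps are not on equal terms, since intervals of 1 list were at least 165 bp apart while a gap between the lists could be 0, and nothing is read from the split.

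Joining both lists within 1 kb placed the near members in 907 loci, 874 of them with a single member. These loci held a median of 2 metformin and 3 control intervals, which covered a median of 2636 bp in the metformin list and 2739 bp in the control list. The member made up a median of 12.7% of the control length of its locus. Metformin coverage was the longer in 38.1% of the 907 loci, against 67.6% of the 17668 loci with both lists and no member. With the member's own length left out, metformin coverage was the longer in 535 of the 826 loci that had other control intervals (64.8%). The rule fixes part of this difference, since each of these loci holds control length that metformin lacks.

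In 77 loci the member was the only control interval, and a metformin interval that overlapped no control interval stood beside it. The gap between them ran from 4 to 956 bp with a median of 287 bp. The metformin intervals were short (median 259 bp) and low (median −log10 q 3.01, range 1.34 to 12.5), and 16 of the 77 reached 5. An example is chr17:12928017-12928190 (value 13.8), which lay 620 bp from the metformin interval chr17:12928811-12929031 (6.81).

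The near member with the highest value was chr1:155990846-155991207, 362 bp long at 20.6 in the control list. It lay 141 bp from the metformin interval chr1:155989288-155990704 (value 39.5), and its control neighbour, 375 bp away, had 25.7. Second was chr14:97263281-97263513 (15.7), 408 bp from a metformin interval of 1746 bp and value 72.6, beside a control neighbour of 2212 bp and value 67.6. Both are short flanking intervals of a domain that was high in both lists. The next, chr1:32816595-32817026 (14.8), was the larger interval at its site: the metformin interval 46 bp away was 276 bp long with a value of 3.79. Likewise chr8:107068857-107069832, 976 bp long with sub-peaks of 5.28 and 13.4, stood 49 bp from a metformin interval of value 3.17.

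Further near members of high value were chr4:120988122-120988400 (13.8), chr2:85837245-85838034 (13.1) and 5 that shared the value 12.6. Those 5 were chr10:69894916-69896318, chr2:96656546-96656730, chr19:1021315-1021506, chr7:56516264-56516453 and chr9:99775764-99775976. Their gaps to the metformin list were from 152 to 427 bp. The interval on chromosome 10 was 1403 bp wide and the second widest near member, and the metformin interval 227 bp from it was 238 bp wide with a value of 2.71. The other 4 of the 5 were from 185 to 213 bp wide.

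The widest near member was chr5:133815542-133817081, 1540 bp at a value of 6.50, 746 bp from a metformin interval of value 14.0. It was followed by chr10:69894916-69896318, chr12:64481604-64482938 (1335 bp), chr10:106018837-106020139 (1303 bp) and chr18:3458599-3459896 (1298 bp). The members chr12:64481604-64482938 and chr10:106018837-106020139 had metformin intervals of value 1.62 and 1.65 at 46 and 111 bp, so a wide control interval there stood beside a call just above the lower limit of the metformin list. The member on chromosome 18 lay 954 bp from a metformin domain of 9315 bp with a value of 70.2.

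Most distant members also stood alone within the control list. Another control interval lay within 1 kb of 105 of the 305 (34.4%, 29.1 to 40.1), and for 89 of those 105 that neighbour was itself absent from the metformin list. The rule fixes part of both counts, since no metformin interval lay within 1 kb of a distant member. A neighbour could be shared only where it reached past that limit. The gap to the metformin list had a median of 8248 bp, with 132 members at up to 5 kb, 113 at 5 to 50 kb and 60 further than 50 kb away. Members just within the 1 kb limit were chr1:236027017-236027378 and chr15:22835694-22835900, at gaps of 995 and 993 bp. Just beyond it were chr15:71034069-71034260 and chr15:89091363-89091543, at 1003 and 1006 bp.

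The distant member with the highest value was chr9:45354124-45354313, 190 bp long at 17.5, whose nearest metformin interval (value 22.1) lay 2345 bp away. It was followed by chr7:74989763-74990014 (15.1), 80.0 kb from any metformin interval, and chr12:89413285-89413454 (13.8), 326 kb from one. Those 3 had no second control interval within 1 kb and were from 170 to 252 bp wide. Next came chrX:49208411-49208636, chr15:49920247-49920535 and chr5:87986743-87986966, all at 12.6, then chr8:130697144-130697927 (12.3) and chr9:115842529-115842790 (12.3). After them came chr7:7464284-7464614 (12.0), chr1:216394738-216394957 (11.3) and chr16:67149324-67149599 (11.3). Of these 11, the one at chr9:115842529-115842790 was covered by H3K27me3, over 180 bp in the control list and not in the metformin list.

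The distant members farthest from the metformin list were isolated calls of low value. They were chr11:28855457-28856052 (value 5.59, 722 kb away), chr9:39287854-39288053 (6.66, 615 kb), chr1:83030835-83031325 (5.59, 498 kb), chr7:144051848-144052089 (5.59, 453 kb) and chr7:3337632-3337837 (5.93, 434 kb). The one on chromosome 11 was 596 bp wide, had a further control interval of 3.57 at 2344 bp and was also the widest of the 5. For the other 4, the nearest control interval was between 434 and 615 kb away.

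A minority of distant members belonged to stretches where several control intervals followed each other with no metformin call. The 305 distant members fell into 293 loci, of which 259 had no metformin interval, and 59 of those 259 held at least 2 control intervals. Loci were joined within 1 kb, the limit that also defines distant members, so the rule fixes part of the 259. The longest series was chr9:21834406-21838102, 3697 bp with 4 control intervals (values 3.07, 5.56, 2.91 and 4.55) that covered 1935 bp, 18.0 kb from the metformin list. The stretch chr15:49919369-49921715 held 3, with values of 10.1, 12.6 and 2.61, and 2 of them were members. At chr3:171241198-171243198 the 3 values were 2.30, 8.05 and 1.56, and the metformin list was 60.9 kb away. Stretches with 3 control intervals also stood at chr14:59197853-59199588, chr20:34320869-34322762 and chr21:43933155-43935341. The others were chr1:23523066-23525182, chr1:33886015-33888248 and chr6:48794512-48795581. These stretches were picked after their values were seen.

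The widest distant members exceeded 1 kb. They were chr7:92254034-92255483 (1450 bp, value 5.59), chr4:15667161-15668544 (1384 bp, 5.83), chr6:148761652-148762979 (1328 bp, 7.18), chr2:173113623-173114820 (1198 bp, 5.59) and chr3:98683125-98684267 (1143 bp, 5.44). The first of them had a second control-only interval of 730 bp and value 7.62 at 210 bp, and that neighbour was a member too. Their gaps to the metformin list ran from 1176 to 6763 bp, and the metformin intervals there had values from 2.61 to 6.49.

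H3K27me3 did not enter the rule. It covered at least 1 bp of 31 members in the metformin list (2.50%, 1.70 to 3.52) and of 36 in the control list (2.90%, 2.04 to 3.99). Over all control H3K4me3 intervals of value 5 or more these shares were 2.99% (842 of 28139) and 2.32% (652 of 28139), so the members' shares were near the background. Of the members, 18 carried the mark in both lists, 13 in the metformin list alone, 18 in the control list alone, and 1193 in neither. Among the shared control intervals, 435 carried it in both, 376 in the metformin list alone and 181 in the control list alone. With 1 library a condition, no test of this difference was made.

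Width matters for such overlaps, so members under 500 bp were set beside shared intervals of the same widths. Metformin H3K27me3 overlapped 2.83% (28 of 989, 1.89 to 4.07) of these members and 3.01% (143 of 4758, 2.54 to 3.53) of the shared intervals. Control H3K27me3 overlapped 3.34% (33 of 989, 2.31 to 4.65) of the members and 2.23% (106 of 4758, 1.83 to 2.69) of the shared intervals. The paired 95% intervals overlap, and no test of these differences was made. By narrower classes, control H3K27me3 overlapped 3.96% (19 of 480, 2.40 to 6.11) of members under 250 bp and 1.82% (22 of 1211, 1.14 to 2.74) of such shared intervals. From 500 to 1000 bp, metformin H3K27me3 overlapped 1.29% (3 of 233, 0.266 to 3.72) of members and 4.19% (279 of 6652, 3.73 to 4.70) of shared intervals. Among the classes under 1000 bp, only this pair of 95% intervals did not overlap, with limits of 3.716 and 3.725. The pair rests on 3 members and was picked from several compared, so nothing is read from it. The median distance from a member to H3K27me3 was 94.9 kb in the metformin list and 106 kb in the control list, against 68.2 and 78.0 kb for shared intervals.

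**Figure D4:**
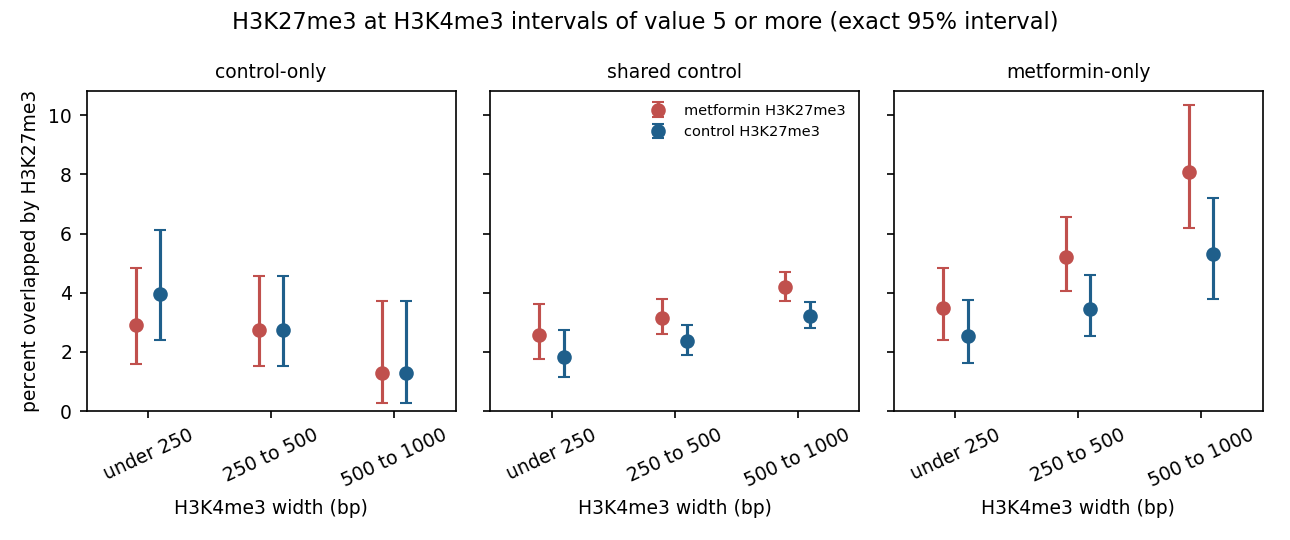
Percent of H3K4me3 intervals of value 5 or more overlapped by H3K27me3 of the metformin list (red) and the control list (blue), for control-only, shared control and metformin-only intervals in 3 width classes in bp. Points are shares and lines exact 95% intervals, and the 2 colours coincide for control-only intervals of 250 to 500 bp (2.75% each). The 20 control-only intervals of 1000 bp or more, of which 0 were overlapped, are not drawn.

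The members with the longest H3K27me3 overlap showed each pattern. The interval chr19:1748161-1748717 (value 5.59) was covered over its whole 557 bp in the metformin list and not at all in the control list, where the nearest H3K27me3 lay 57 bp away. The reverse was seen at chr1:26663510-26664493 (6.50), covered over 746 of 984 bp in the control list and 19.6 kb from H3K27me3 in the metformin list. The same held at chr9:112404125-112404583 (9.41), with 459 bp in the control list and a metformin H3K27me3 interval 269 bp away. Both lists covered all of chr3:140770650-140771132 (483 bp) and chr9:79636492-79636879 (388 bp). At chr15:60292403-60293302 the overlap was 469 bp in the metformin list and 653 bp in the control list, at chr5:146612244-146612621 it was 378 and 40 bp, and at chr3:56503043-56503465 it was 338 and 423 bp.

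Members were found on each of chromosomes 1 to 22 and X. They made up from 2.06% (12 of 583, 1.07 to 3.57) of the control intervals of value 5 or more on chromosome 22 to 6.61% (31 of 469, 4.53 to 9.25) on chromosome 18, with a median of 4.56% over the 23 chromosomes. Chromosome 19, rich in genes and in zinc finger clusters, had 2.78% (57 of 2047, 2.12 to 3.59). Chromosome 13 had 2.57% (12 of 467), X 2.70% (21 of 777) and chromosome 16 2.94% (33 of 1124). Chromosomes 2, 7 and 12 stood at 5.57, 5.38 and 5.24%. The largest absolute number, 128 with 88 near and 40 distant, was on chromosome 1.

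**Figure D5:**
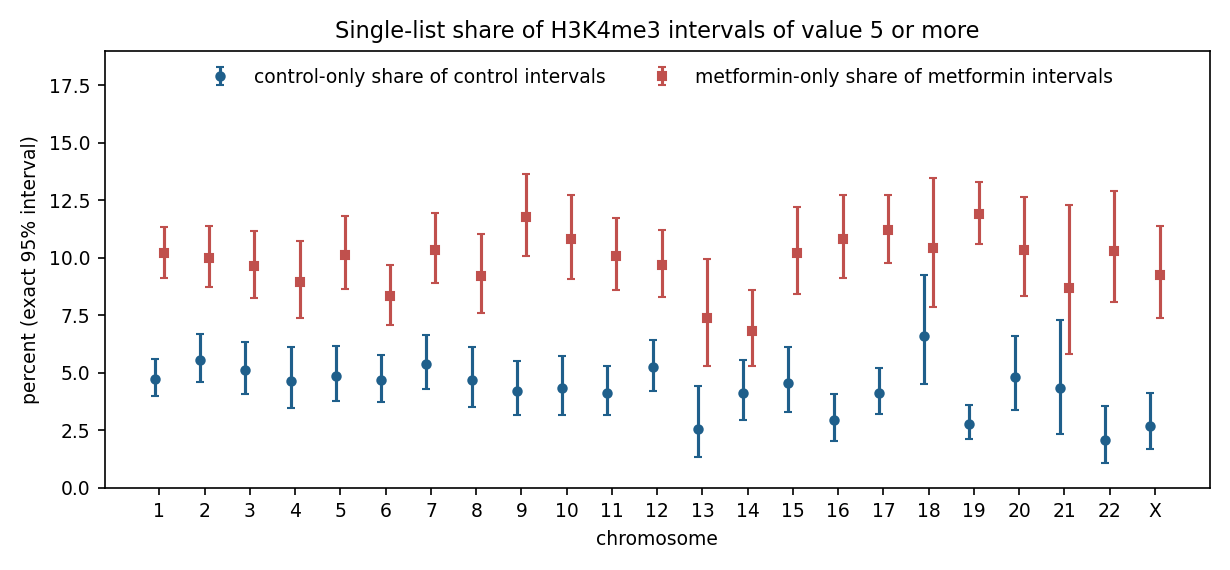
Percent of H3K4me3 intervals of value 5 or more that the other list lacked, on each of 23 chromosomes, for the control list (blue) and the metformin list (red), with exact 95% intervals. The blue points lie below the red ones on each chromosome, from 2.06% on chromosome 22 to 6.61% on chromosome 18.

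Counted by position, 614 bins of 1 Mb held 1 member, 161 held 2, 55 held 3, 22 held 4, 7 held 5 and 3 held 6. Bins were picked by count, which favours bins with many control intervals. In the fullest, members were 23.1% (chromosome 3), 22.2% (chromosome 12) and 6.98% (chromosome 19) of control intervals of value 5 or more. Over all chromosomes they were 4.41%. On chromosome 3, the bin from 149 to 150 Mb had 6 members among 26 control intervals of value 5 or more, with 1 metformin-only interval of that limit. Of these, chr3:149017034-149017480 and chr3:149017874-149018757 stood 393 bp apart and at least 14.4 kb from the metformin list, and the bin's values ran from 5.04 to 7.59. On chromosome 12, the bin from 66 to 67 Mb had 6 of 27, 3 near and 3 distant, with values from 5.28 to 6.66. Its distant members were chr12:66042700-66042865, chr12:66238463-66238679 and chr12:66304256-66304478. On chromosome 19, the bin from 1 to 2 Mb had 6 near members of 86 control intervals, beside 23 metformin-only intervals, and 2 of its members, chr19:1700847-1701209 and chr19:1748161-1748717, carried metformin H3K27me3.

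The bins with 5 members were chromosome 1 from 85 to 86 Mb (of 29 control intervals) and from 150 to 151 Mb (of 46), chromosome 2 from 217 to 218 Mb (of 15), and chromosome 7 from 102 to 103 Mb (of 26). The remaining ones were chromosome 11 from 65 to 66 Mb (of 80), chromosome 12 from 27 to 28 Mb (of 26) and the first Mb of chromosome 18 (of 19). Across the bins with 5 members, the share of control intervals ran from 6.25% (chromosome 11) to 33.3% (chromosome 2). The bin on chromosome 2 had 3 distant members. The bin from 150 to 151 Mb of chromosome 1 also had 3, and it held no metformin-only interval of value 5 or more.

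The same rule with the lists exchanged gave 3054 metformin-only intervals, 10.0% of the 30403 metformin intervals of value 5 or more. Control-only intervals were thus the smaller set, and on each of 23 chromosomes their share was below the metformin-only share, whose range was 6.82 to 11.9%. The medians of width and value were 300.5 bp and 5.78 for control-only and 335.5 bp and 6.58 for metformin-only intervals. Within 1 kb of the other list lay 75.4% (73.0 to 77.8) of control-only and 71.2% (69.6 to 72.8) of metformin-only intervals. Among single sub-peak intervals under 500 bp with values from 5 to 8, 25.1% (861 of 3432, 23.6 to 26.6) of control and 46.8% (1793 of 3833, 45.2 to 48.4) of metformin intervals had no partner. The metformin list was longer in all, with 53454 intervals. With the metformin list cut by value to the length of the control list, the control-only share was 4.78% (1344 intervals). Such a cut removes partners and cannot lower this share. The metformin-only share was not counted again at equal length, so the cut does not show what list length adds to the difference. The part of depth in these shares was not tested.

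The overlap with H3K27me3 was also set beside that of the metformin-only intervals. Metformin H3K27me3 overlapped 2.50% (1.70 to 3.52) of control-only intervals and 5.60% (171 of 3054, 4.81 to 6.47) of metformin-only intervals, and these intervals do not overlap. Under 500 bp the shares were 2.83% (28 of 989, 1.89 to 4.07) of control-only and 4.48% (101 of 2252, 3.67 to 5.42) of metformin-only intervals, and there they do. From 500 to 1000 bp the shares were 1.29% (3 of 233, 0.266 to 3.72) and 8.09% (58 of 717, 6.20 to 10.3), and there they do not. Control H3K27me3 overlapped 2.90% (2.04 to 3.99) and 3.73% (114 of 3054, 3.09 to 4.47) over all widths, with intervals that overlap. Under 500 bp its shares were 3.34% (2.31 to 4.65) and 3.06% (2.39 to 3.86), which overlap too. From 500 to 1000 bp they were 1.29% (3 of 233, 0.266 to 3.72) and 5.30% (38 of 717, 3.78 to 7.20), and these do not overlap. Intervals of 1 library are not replicates, so this compares the lists deposited for these libraries and not the conditions.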

How the data were processed

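The lists of H3K4me3 and H3K27me3 ChIP-seq peaks from H1299 cells with and without 5 mM metformin were used, 1 library each. Per the submitters' processing notes, the tools were Trimmomatic 0.38, Bowtie and MACS2 and the build was hg19 (GRCh37). Options and the background library are not stated there. Per the labels, every list comes from a single unpooled library. The deposited value of each peak was read as a −log10 q-value by the authors' peak caller. This reading rests on the smallest H3K4me3 values, 1.31 in both lists, which lie just above the −log10 of 0.05. The smallest H3K27me3 values, 1.011 (control) and 1.004 (metformin), lie below it. No limit of value was applied to the H3K27me3 lists. The deposited value was used to describe, rank and filter H3K4me3 peaks. The same limits of value were applied to both H3K4me3 lists. Values of the lists are also set side by side, without a correction for read depth, which is unknown.

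Lines with the same interval were joined and given their highest value. Within a list, intervals were at least 165 bp apart. Gaps are the bases between intervals, and coordinates are 1-based on hg19. Shares carry exact 95% intervals. Overlap code recovered 200 of 200 isolated intervals removed from a shifted copy of the control list with 0 false calls. That checks the code only, since intervals with close neighbours were not removed. Its counts equalled those of bedtools 2.31.1 in 3 pairs of lists. Python 3.11.15, pandas 2.3.3, numpy 2.4.6, scipy 1.17.1 and matplotlib 3.10.9 were used. Members and lists were chosen with earlier results of these data known. Regions named are the 10 highest (ties included) and the 5 widest of each distance class, the 5 most distant, the 5 with the longest H3K27me3 overlap, those next to a limit, and the fullest 1 Mb bins (ties included). Genes and sequences at the intervals were not analysed here, because the tables at hand are on GRCh38 and positions were not converted.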

Additional observations from a re-analysis of the deposited data

How the results depend on the processing

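No paired analysis was possible because each mark had a single library per condition. For the same reason no replicate could be left out. Absence from a peak list is not absence of the mark, and depth is unknown. The number of control-only intervals, 1242 (4.41%), became 5281 (13.5%) at a value limit of 3, 65 (0.347%) at 10, 2396 (8.51%) when sharing required 50% of the interval to be overlapped, 2718 (9.66%) when only metformin intervals of 5 or more could be partners, and 402 (2.47%) with intervals within 1 kb merged. The share was 3.08% (866) with metformin intervals within 200 bp counted as shared, 4.78% (1344) with lists of equal length and 5.80% (1190) by the lowest sub-peak. Of the shared control intervals, 83 were overlapped over less than 50 bp. The share near a metformin interval, 75.4%, became 59.5% with a limit of 500 bp, 86.1% with 5 kb, 70.8% at a value limit of 3 and 64.6% at 10, where 65 members were left. Overlap with metformin and control H3K27me3, 2.50% and 2.90%, became 4.59% and 5.15% with members widened by 1 kb, and 0% and 1.54% at a value limit of 10, where the exact 95% interval of 0 of 65 reaches 5.52%. The median width of near members, 304 bp, became 336.5 bp at a limit of 10. The members under 500 bp were set apart after seeing the data.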
